A study of Mus musculus with 6 samples.

Results

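Microglia, the resident macrophages of the brain, were followed in the nucleus accumbens of cocaine-treated and saline-treated mice through 10 marker genes: Cx3cr1, P2ry12, Tmem119, Csf1r, Aif1, C1qa, C1qb, C1qc, Trem2 and Tyrobp. The genes were found in the table by symbol, and each had exactly 1 row among the 35406 rows of the deposited RNA-seq table. All 10 had test status OK, which 23479 rows had, and all 10 had a mean of at least 1 FPKM (fragments normalised for transcript length and library size), so none was lost to a filter on low values. The first group had received cocaine at 20 mg/kg by intraperitoneal injection over 1 week and the other had received saline by the same route and for the same time. Both groups were male C57BL/6 mice of 11 weeks, examined at 24 h of withdrawal, and each was made of 3 pools of 5 mice, with tissue from both hemispheres. Per the labels, all mice of a cage were given the same injection, so that cage and treatment cannot be told apart. The table holds 1 FPKM value per gene and group and none per pool. Every level below is therefore the authors' group value, and the spread between pools is not known. In bulk tissue, fewer cells of a type and less RNA per cell cannot be told apart.

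Microglia sense their surroundings through surface receptors that few other brain cells carry. Cx3cr1 is the receptor for fractalkine (Cx3cl1), a ligand on neurons, and P2ry12 is a purine receptor that steers microglial processes towards sites that release nucleotides. Csf1r, the receptor for Csf1 and Il34, carries the survival signal on which microglia depend. Trem2, a lipid-sensing receptor, signals through the adaptor Tyrobp, also called DAP12. C1qa, C1qb and C1qc encode the chains of C1q, the recognition molecule of the classical complement pathway, which marks synapses for removal in development and which microglia supply in the brain. Aif1, better known as Iba1, is a cytoplasmic actin-bundling protein used to stain microglia and macrophages, and Tmem119 is a membrane protein used to tell microglia from other macrophages.

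Of the 10 marker genes, Tmem119 alone passed the test, and it was higher after cocaine. Tmem119 had 10.8 FPKM in cocaine-treated mice, against 6.29 FPKM in saline-treated mice. This is a 1.72-fold difference, or a log2 ratio of 0.78 ± 0.20, with q = 0.00121 in the authors' deposited table. The error here and below is the standard error implied by the authors' test statistic, namely the log2 ratio divided by that statistic, and intervals are 95% normal intervals from it. Neither need hold the spread between pools. The remaining 9 genes were not called at a q under 0.05. Of all rows with status OK 11.9% were called, and of the 14567 rows that also reached 1 FPKM on average and were not listed at 0 in either group 14.8% were, with 7.52% called higher and 7.27% called lower. A count of 1 in 10 (10%) lies near that background. With the authors' unadjusted p under 0.05 the count was 3 of 10 (Tmem119, C1qa and C1qb), against 27.3% of those 14567 genes. At a q under 0.01 or under 0.1 it stayed at 1 of 10, against 9.4% and 18.7% of them.

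The marker genes as a set had nearly the same total level in both groups. Summed over the 10 genes the level was 214.2 FPKM in cocaine-treated and 213.02 FPKM in saline-treated mice, a ratio of 1.01. Without Tmem119 the sums were 203.4 and 206.7 FPKM in the same order, a ratio of 0.984. The log2 ratio was above 0 for 6 genes and below 0 for 4. Their median was 0.06 and that of all 14567 genes was 0.04, and 5 of the 10 lay above the latter value. The median absolute log2 ratio was 0.17 for the marker genes and 0.20 for all 14567 genes.

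**Figure D1:**
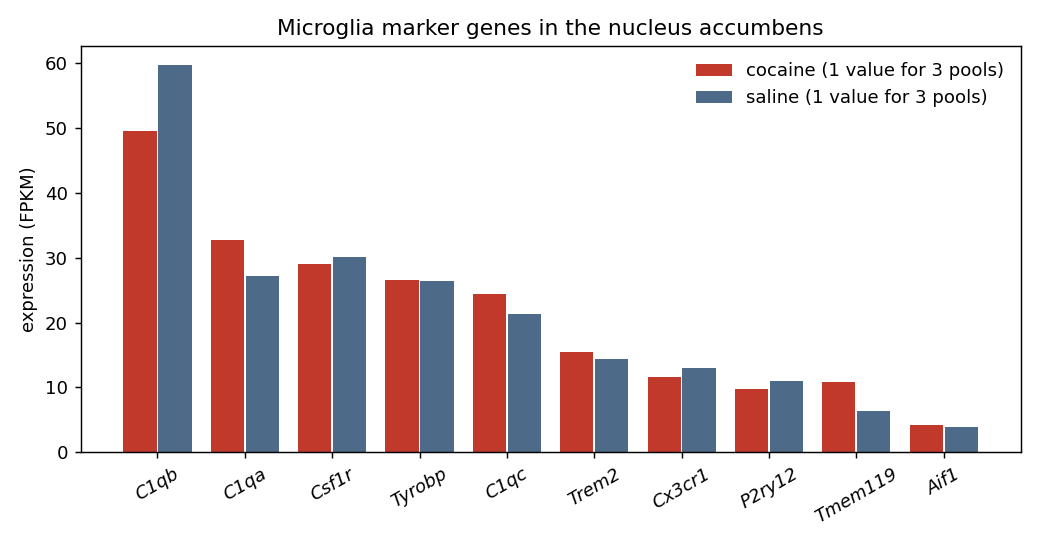
Expression level (FPKM, linear axis from 0) of the 10 microglia marker genes, with the cocaine group as red bars and the saline group as blue bars, ordered by the mean of both groups; each bar is 1 deposited value for 3 pools, so no error bar can be drawn. C1qb is the highest in both groups and Aif1 the lowest, and Tmem119 is the gene with the largest relative gap, at 10.8 FPKM with cocaine and 6.29 FPKM with saline.

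Since FPKM is scaled to transcript length, the levels can be ranked between genes. The order in cocaine-treated mice ran from C1qb (49.5 FPKM) through C1qa, Csf1r, Tyrobp, C1qc, Trem2, Cx3cr1, Tmem119 and P2ry12 to Aif1 (4.27 FPKM). In saline-treated mice C1qb was again the highest at 59.7 FPKM and Aif1 again the lowest at 3.91 FPKM. Ranks changed in 2 places: C1qa stood above Csf1r with cocaine and below it with saline, and Tmem119 stood above P2ry12 with cocaine and below it with saline. No error of a level is given in the table, so whether neighbours in this order differ cannot be said. Among the 14567 genes, the mean level of the marker genes lay between percentile 25.8 (Aif1) and percentile 87.6 (C1qb).

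The log2 ratio of Tmem119 was the highest of the 10. Its row, at chromosome 5, 114243738 to 114250525 in the mouse build that the submitters' notes call mm9 and NCBIM37, shares its locus with no other row. The implied interval of its log2 ratio ran from 0.40 to 1.17. A log2 ratio higher than that of Tmem119 was found in 338 of the 14567 genes (2.32%). The difference between the log2 ratio of Tmem119 and that of each other marker gene had an interval without 0 for 8 of the 9 genes. It was smallest for C1qa, at 0.51 ± 0.24 (interval 0.05 to 0.98), and largest for C1qb, at 1.05 ± 0.23 (interval 0.60 to 1.51). The exception was Aif1, with a difference of 0.66 ± 0.37 (interval -0.06 to 1.37). These intervals treat the rows as independent, which genes of 1 set of libraries need not be, and Tmem119 was singled out after its value was seen.

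**Figure D2:**
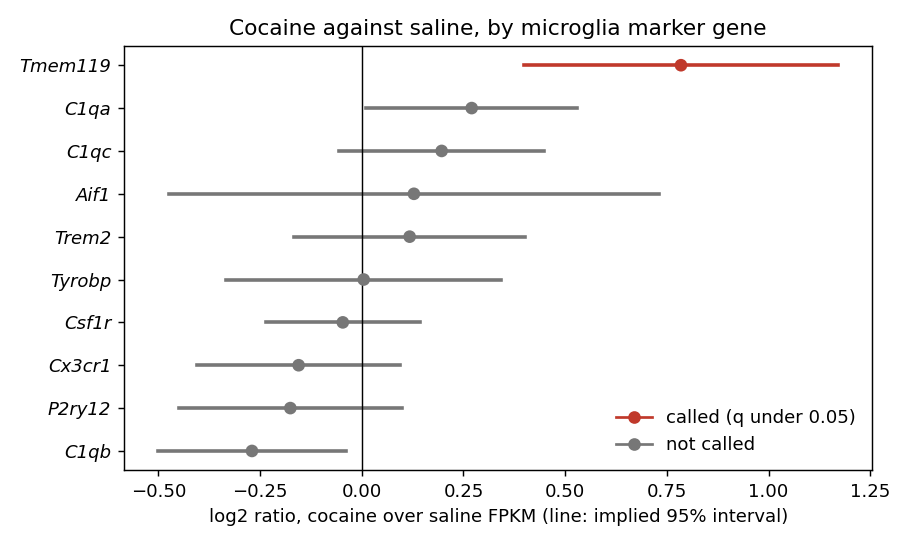
Log2 ratio of cocaine over saline FPKM (horizontal axis) for each marker gene, from the highest at the top to the lowest at the bottom; points are the ratios, lines their implied 95% intervals, red marks the gene called at a q under 0.05 and grey those not called. The interval of Tmem119 (0.40 to 1.17) lies wholly to the right of 0, that of C1qa just to the right and that of C1qb just to the left, and the other 7 cross 0.

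The C1q chains, which assemble into a single protein, did not share a direction. C1qa, the A chain, had 32.7 FPKM in cocaine-treated mice, against 27.1 FPKM in saline-treated mice, with a log2 ratio of 0.27 ± 0.13 and q = 0.208 in the authors' deposited table. C1qb, the B chain, had 49.5 FPKM in cocaine-treated mice, against 59.7 FPKM in saline-treated mice, with a log2 ratio of -0.27 ± 0.12 and q = 0.134 in the authors' deposited table. C1qc, the C chain, had 24.4 FPKM in cocaine-treated mice, against 21.3 FPKM in saline-treated mice, with a log2 ratio of 0.20 ± 0.13 and q = 0.413 in the authors' deposited table. None of the chains was called. The log2 ratios of C1qa and C1qb nevertheless differed from each other by 0.54 ± 0.18 (interval 0.19 to 0.89) and those of C1qc and C1qb by 0.47 ± 0.17 (interval 0.12 to 0.81). Those of C1qa and C1qc differed by 0.07 ± 0.18 (interval -0.29 to 0.44). These pairs were chosen after the values were seen.

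The summed level of the chains was 106.6 FPKM in cocaine-treated and 108.1 FPKM in saline-treated mice, so that the gap lay in how the sum was divided. C1qb made up 46.4% of it with cocaine and 55.2% with saline, C1qa 30.7% with cocaine and 25.1% with saline, and C1qc 22.9% with cocaine and 19.7% with saline. The A chain was at 0.661 times the level of the B chain with cocaine and at 0.454 times with saline.

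The genes of the chains lie side by side on chromosome 4 in the build of the table, with C1qb at 136436044 to 136442102, C1qc at 136445719 to 136448980 and C1qa at 136451832 to 136454718. The intervals printed for their rows are 3616 bases apart between C1qb and C1qc and 2851 bases apart between C1qc and C1qa, and each row is alone in its locus. The upstream sequences of C1qb and C1qc are shown because these neighbours had ratios on opposite sides of 0. They are RefSeq promoter windows of GRCm38.p6, on the minus strand and written 5′ to 3′, at chr4:136886201-136886450 for C1qb and chr4:136893066-136893164 for C1qc. The window of C1qc was ended where another annotated C1qc transcript begins. Capitals mark GAGGAA, the PU box bound by the macrophage transcription factor PU.1, or its reverse complement TTCCTC.
C1qb: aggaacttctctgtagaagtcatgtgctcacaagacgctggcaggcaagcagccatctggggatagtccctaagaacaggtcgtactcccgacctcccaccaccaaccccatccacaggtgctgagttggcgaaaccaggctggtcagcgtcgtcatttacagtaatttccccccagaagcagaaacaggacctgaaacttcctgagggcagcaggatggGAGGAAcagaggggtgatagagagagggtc
C1qc: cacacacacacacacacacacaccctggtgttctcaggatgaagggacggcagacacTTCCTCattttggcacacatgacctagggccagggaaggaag
Each of the pair held 1 match, C1qb on its coding strand and C1qc on the other. Promoters of 6 marker genes were searched (Aif1, C1qb, C1qc, Cx3cr1, P2ry12 and Trem2), and Csf1r was left out of the search beforehand. Tmem119, C1qa and Tyrobp had no window in the promoter set used and were not searched. Of these 6, 4 held the hexamer on either strand in the 250 bases before the start (not Cx3cr1 or P2ry12). The share was 23.4% in 32536 promoter windows of that length. For Cx3cr1, as for C1qc, another annotated transcript begins inside those 250 bases. A match to 6 letters is a description of the sequence and shows no binding.

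The surface receptors other than Trem2 had log2 ratios slightly below 0, and none was called. Cx3cr1 had 11.6 FPKM in cocaine-treated mice, against 12.9 FPKM in saline-treated mice, a log2 ratio of -0.16 ± 0.13, with q = 0.565 in the authors' deposited table. P2ry12 had 9.69 FPKM in cocaine-treated mice, against 10.9 FPKM in saline-treated mice, a log2 ratio of -0.18 ± 0.14, with q = 0.545 in the authors' deposited table. Csf1r, at chromosome 18, 61265226 to 61290791, had 29.1 FPKM in cocaine-treated mice, against 30.1 FPKM in saline-treated mice. Its log2 ratio of -0.05 ± 0.10 carried the smallest error of the 10 genes, with an interval of -0.24 to 0.14 and q = 0.939 in the authors' deposited table. The row of Cx3cr1 lies on chromosome 9, 119957811 to 119977400, and like that of Csf1r it is alone in its locus.

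P2ry12 is the exception among the markers in position. Its row, at chromosome 3, 58791092 to 59148178, shares its locus with 8 other rows, while the other 9 marker genes are each alone. Among those 8 is Med12l, a Mediator subunit gene, with 3.84 FPKM in cocaine-treated and 5.14 FPKM in saline-treated mice and q = 0.00172 in the authors' deposited table. The purine receptor genes P2ry13 and P2ry14 are there too. P2ry13, another microglial receptor, had 4.10 FPKM in cocaine-treated mice, against 4.05 FPKM in saline-treated mice. P2ry14 had 2.22 FPKM in cocaine-treated mice, against 0.933 FPKM in saline-treated mice, and was called higher (log2 ratio 1.25 ± 0.34, q = 0.00397 in the authors' deposited table). Whether strand was used in counting is not given in the sources used here, and fragments of overlapping genes on opposite strands may have been divided between these rows. These neighbours were named after their values were seen.

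Trem2 and its adaptor Tyrobp were close to equal in both groups. Trem2 had 15.5 FPKM in cocaine-treated mice, against 14.3 FPKM in saline-treated mice, a log2 ratio of 0.12 ± 0.15, with q = 0.781 in the authors' deposited table. Tyrobp had 26.5 FPKM in cocaine-treated mice, against 26.4 FPKM in saline-treated mice, a log2 ratio of 0.00 ± 0.17 (interval -0.33 to 0.34). Receptor to adaptor, the FPKM ratio was 0.586 with cocaine and 0.542 with saline. Aif1 had 4.27 FPKM in cocaine-treated mice, against 3.91 FPKM in saline-treated mice. It was the lowest of the markers and had the widest interval, from -0.47 to 0.73 around a log2 ratio of 0.13 ± 0.31 (q = 0.966 in the authors' deposited table). Trem2 and Aif1 lie on chromosome 17, at 48485726 to 48493472 and 35307937 to 35310223, and Tyrobp lies on chromosome 7 at 31198807 to 31202596.

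A missed threshold does not show that these genes were alike in both groups, and the implied errors set what could have been called. The threshold of q under 0.05 fell at p = 0.00593 in the authors' deposited table. At each gene's implied error, the smallest difference that would have been called was 1.20-fold for Csf1r, 1.25-fold for C1qb, 1.27-fold for Cx3cr1, 1.46-fold for Tmem119 and 1.80-fold for Aif1. Over the 9 genes not called, the intervals reached down to -0.50 and up to 0.73 on the log2 scale. The number of fragments per library is not in the table, so depth is unknown. Set beside genes within 1.5-fold of its own level, Csf1r had an implied error at percentile 16.3, Tmem119 at percentile 72.0 and Tyrobp at percentile 91.1.

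**Figure D3:**
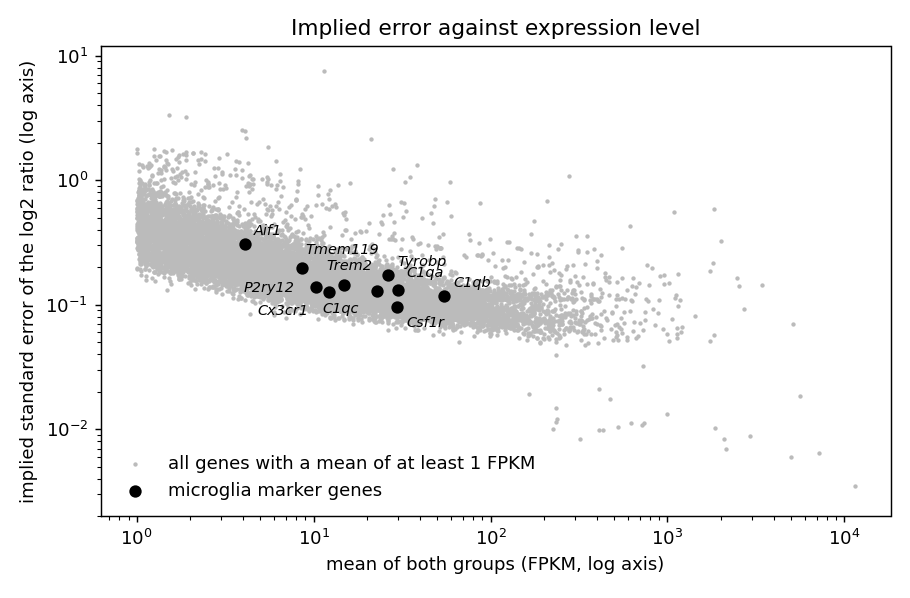
Implied standard error of the log2 ratio (vertical log axis) against the mean FPKM of both groups (horizontal log axis); grey dots are the 14567 genes with a mean of at least 1 FPKM and black dots the 10 marker genes. The marker genes lie inside the cloud, with Aif1 the highest in error at 0.31 and Csf1r the lowest at 0.10.

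The ligands of these receptors were not called either. Cx3cl1 had 334.7 FPKM in cocaine-treated mice, against 368.2 FPKM in saline-treated mice, with a wide implied error (log2 ratio -0.14 ± 0.36). Csf1 had 4.84 FPKM in cocaine-treated mice, against 6.67 FPKM in saline-treated mice (log2 ratio -0.46 ± 0.19, q = 0.107 in the authors' deposited table). Il34, the other ligand of Csf1r and the one that neurons make, had 28.1 FPKM in cocaine-treated mice, against 25.4 FPKM in saline-treated mice (log2 ratio 0.15 ± 0.12), in a locus shared with a pair of gene models. Apoe, a lipoprotein bound by Trem2 and made mainly by astrocytes, had 2218 FPKM in cocaine-treated mice, against 1786 FPKM in saline-treated mice (log2 ratio 0.31 ± 0.33). Of 9 genes for receptors, adaptors, enzymes and other proteins that signal with or downstream of Tyrobp-type adaptors, 0 were called at a q under 0.05 and 1 had an unadjusted p under 0.05 in the authors' deposited table. Of all rows with status OK 11.9% were called, and of the 14567 genes 27.3% had an unadjusted p under 0.05. The 9 genes are too few to be set apart from these shares. The most abundant of them were the Fc receptor chain Fcer1g, at 8.59 FPKM with cocaine and 8.89 FPKM with saline, and the Fc receptor Fcgr3, at 8.11 FPKM with cocaine and 9.09 FPKM with saline.

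Beyond C1q, no gene listed for the classical complement pathway was called, and part of the list was at a low level. Of 16 genes for its proteases, later components, receptors and regulators 0 were called, against 11.9% of all rows with status OK. Of the same 16, 1 had an unadjusted p under 0.05 in the authors' deposited table, and 7 had a mean under 1 FPKM. Of the 14567 genes, all of which reached 1 FPKM, 27.3% had such a p. Itgam, a subunit of complement receptor 3, had 9.42 FPKM in cocaine-treated mice, against 12.8 FPKM in saline-treated mice (log2 ratio -0.44 ± 0.31). C1qbp, a mitochondrial protein first isolated as a C1q-binding protein, had 36.2 FPKM in cocaine-treated mice, against 34.8 FPKM in saline-treated mice (log2 ratio 0.05 ± 0.13).

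Other genes enriched in microglia moved in both directions. Of 39 with a row, 5 were called (12.8%), 2 higher and 3 lower. The share called was 11.9% of all rows with status OK. It was 14.8% of the 14567 genes that reached 1 FPKM, as 37 of the 39 did. The median log2 ratio of the list was 0.00 over the 37 with a mean of at least 1 FPKM. Mertk, a receptor for the uptake of dying cells that astrocytes carry too, had 12.3 FPKM in cocaine-treated mice, against 9.29 FPKM in saline-treated mice, and rose by 0.40 ± 0.12 on the log2 scale, in a locus shared with other rows. Sall1, the transcription factor that maintains microglial identity, had 4.64 FPKM in cocaine-treated mice, against 6.21 FPKM in saline-treated mice, a log2 ratio of -0.42 ± 0.13 with q = 0.0145 in the authors' deposited table. The lysosomal genes Lgmn, a protease, and Cd68, a membrane glycoprotein of phagocytes, also fell, with log2 ratios of -0.34 ± 0.08 and -0.33 ± 0.12. Cd68 was just inside the threshold, at 24.6 FPKM with cocaine and 30.97 FPKM with saline (q = 0.0488 in the authors' deposited table). The abundant Ctss, a lysosomal protease, had 35.8 FPKM in cocaine-treated mice, against 31.4 FPKM in saline-treated mice, and Cst3, a protease inhibitor made by many brain cells, had 2721 FPKM in cocaine-treated mice, against 2663 FPKM in saline-treated mice. Neither was called.

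Genes of an inflammatory response were near the bottom of the measured range. Of 27 cytokine, chemokine and innate signalling genes 20 had a mean under 1 FPKM and 21 had status OK. Of those 21, 3 were called (14.3%, against 11.9% of all rows with status OK), 1 higher and 2 lower. Il18, a cytokine activated by the inflammasome, had 19.8 FPKM in cocaine-treated mice, against 12.6 FPKM in saline-treated mice, and rose by 0.65 ± 0.20 on the log2 scale (q = 0.0121 in the authors' deposited table). Stat3, a transcription factor of cytokine signalling in a locus shared with Stat5a, had 34.3 FPKM in cocaine-treated mice, against 50.8 FPKM in saline-treated mice, and fell by 0.57 ± 0.11. The third was the chemokine gene Cxcl10, named after its values were seen, at 0.010 FPKM with cocaine and 0.028 FPKM with saline in a locus shared with other rows. Nfkb1 and Nfkbia, a subunit and an inhibitor of NF-kB, were not called, with log2 ratios of 0.17 ± 0.15 and 0.29 ± 0.16. Of 17 tested genes that rise in disease-associated microglia of mouse models, 0 were called at a q under 0.05, against 11.9% of all rows with status OK. Of the same 17, 2 had an unadjusted p under 0.05 in the authors' deposited table, against 27.3% of the 14567 genes described above. The sets differ in level, since all of the 14567 genes but only 13 of the 17 had a mean of at least 1 FPKM. Among the 17, the lysosomal protease gene Ctsd had 221.1 FPKM in cocaine-treated mice, against 208.4 FPKM in saline-treated mice. The row of Ctsd names another gene model too.

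Markers of other cells that such tissue can hold are given for comparison, and their part in the result for Tmem119 was not tested. The share of calls to set beside their counts is the 11.9% of all rows with status OK. Of 13 markers of macrophages at the brain's borders 9 had a mean under 1 FPKM, and the summed level was 16.9 FPKM in cocaine-treated and 13.3 FPKM in saline-treated mice. Stab1, a scavenger receptor in a locus shared with Nt5dc2, was the 1 called and held most of the gap between the sums. It had 10.02 FPKM with cocaine and 6.50 FPKM with saline (log2 ratio 0.62 ± 0.22, q = 0.0355 in the authors' deposited table). Cd163 and Cbr2, the most abundant border macrophage markers that were not called, had log2 ratios of -0.33 ± 0.19 and 0.97 ± 0.74. Of 16 markers of blood leukocytes and red cells 11 had a mean under 1 FPKM, 7 had status OK and 1 was called, the heme synthesis gene Alas2 (log2 ratio -1.31 ± 0.45). The row of Alas2 shares its locus with that of Pfkfb1, which was called higher. Haemoglobin genes Hba-a1 and Hbb-b1 were not called, with 87.4 and 84.9 FPKM in cocaine-treated mice and 72.1 and 70.2 FPKM in saline-treated mice.

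Among the other brain cell types the median log2 ratio lay between -0.12 for 10 astrocyte markers and 0.14 for 10 medium spiny neuron markers, with choroid plexus markers apart. Of the astrocyte markers 2 were called and both fell, the glutamate transporter gene Slc1a2 (-0.72 ± 0.05) and the transcription factor gene Sox9 (-0.60 ± 0.13), by log2 ratio. Of 12 oligodendrocyte markers 3 were called, all lower (Cspg4, Cnp and Mbp), with Mbp at a log2 ratio of only -0.08 ± 0.01. Over all 12 the log2 ratio was above 0 for 6 and below 0 for 6. Of 13 endothelial and mural markers 2 were called, both lower (Pecam1 and Vtn). Over all 13 the log2 ratio was above 0 for 5 and below 0 for 8. Of all rows with status OK 11.9% were called, and of the 14567 genes that reached 1 FPKM 14.8% were. All markers in these lists reached 1 FPKM, and the lists are too short to be set apart from either share. Of 7 general neuron markers 0 were called at a q under 0.05 and 2 had an unadjusted p under 0.05 in the authors' deposited table. The 10 markers of medium spiny neurons, the projection neurons of the striatum, summed to 3965 FPKM in cocaine-treated and 3568 FPKM in saline-treated mice. Of these 10 markers 3 were called, among them Tac1 (0.32 ± 0.10), which was higher, and Pde10a (-0.30 ± 0.11), which was lower, by log2 ratio. The largest part of either sum came from Penk, which was not called. Penk had 1943 FPKM with cocaine and 1737 FPKM with saline, with a wide implied error (log2 ratio 0.16 ± 0.59). Choroid plexus epithelium lies in the ventricles next to this tissue, and its 7 markers summed to 16.9 FPKM with cocaine and 101.4 FPKM with saline. Most of either sum came from Ttr, at 9.46 FPKM with cocaine and 93.4 FPKM with saline. Kl and Clic6, other markers of that epithelium, were not called, with log2 ratios of -0.48 ± 0.21 and 0.38 ± 0.22. Of the 7 markers Clic6 alone was higher with cocaine. The remaining 4 had means under 1 FPKM, were lower with cocaine and were not called. Their log2 ratios were -3.30 ± 3.87 (Folr1), -2.23 ± 0.99 (Kcnj13), -0.77 ± 0.66 (Sostdc1) and -0.42 ± 0.70 (Otx2). These 4 were named after their values were seen. The rows of Slc1a2, Cnp, Mbp, Pecam1, Pde10a, Penk, Ttr, Clic6 and Kcnj13 share their loci with other rows.

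**Figure D4:**
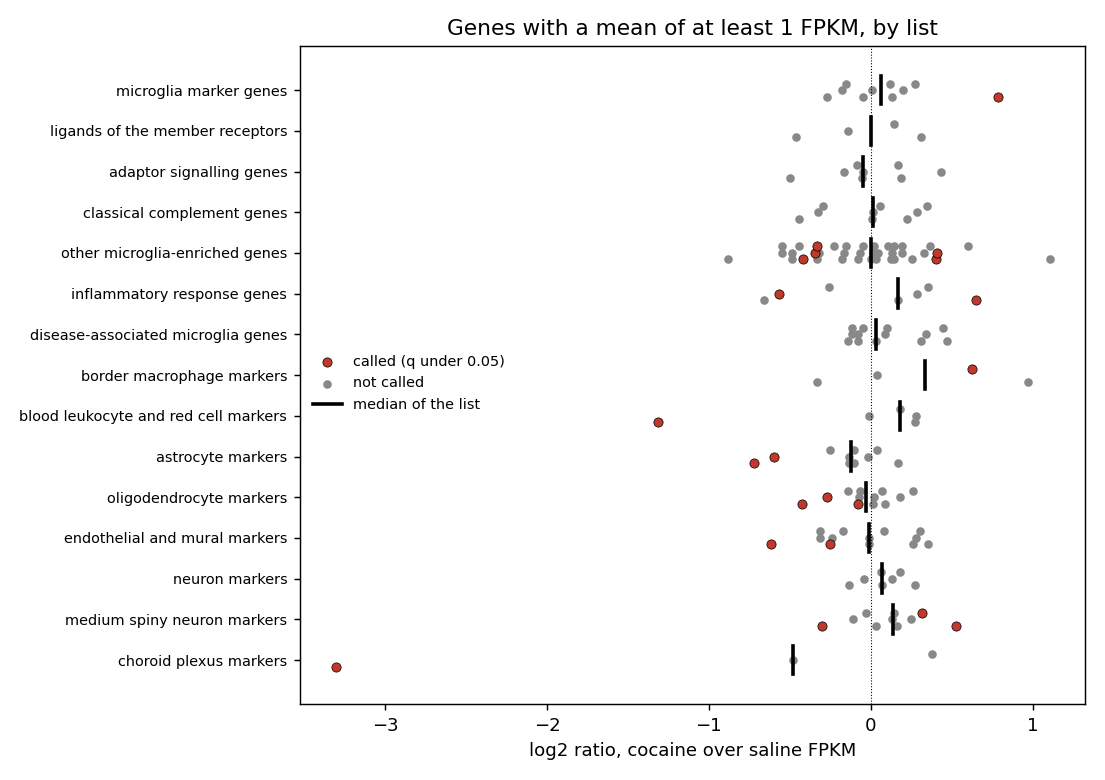
Log2 ratio of cocaine over saline FPKM (horizontal axis) for genes with status OK and a mean of at least 1 FPKM, 1 row per gene list; red dots with a black edge were called at a q under 0.05, grey dots were not, and black bars are list medians. The microglia marker genes sit around a median of 0.06 with Tmem119 alone on the far right, and the choroid plexus marker Ttr is at the far left.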

How the data were processed

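RNA-seq of mouse nucleus accumbens was compared between 3 cocaine and 3 saline pools of 5 mice. The submitters' processing notes name CASAVA, TopHat, Cuffdiff, mm9 and NCBIM37, and give no software versions or settings in the form used here. A deposited table of 35406 rows was used. Its expression values were deposited by the authors as 1 FPKM value per gene and group, a unit taken from the Cuffdiff layout of the file headers. The p-value and the q-value were used as deposited by the authors. The q-value (highest 1.12) and the test statistic were handled as deposited scores. In 100% of tested rows the statistic had the sign opposite to the ratio, so only its size was used. How pools entered the authors' test is not stated, no test on pools could be run, and p-values may not cover the spread between them.

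Log2 ratios were computed without a pseudocount (Python 3.11, pandas 2.3.3). A call is status OK and q under 0.05, adjusted by the authors across all genes. Starts were made 1-based by adding 1, after which 21 of 21 mitochondrial rows with a locus of their own matched GENCODE vM21. Upstream sequences are RefSeq, GRCm38.p6; the position at which an upstream window ends was read from GENCODE transcripts. The steps were run on ratios simulated from the implied errors, to check that the formulas return the ratios and errors put in. The simulation held no pools, so it cannot speak to the spread between them. The marker genes and the 14 other lists were chosen with earlier results of these data known. Of 205 list entries 3 had no row (Syk, Irf8 and Tubb3), and Itgam, Fcer1g, Fcgr3 and Apoe each stand in 2 lists. Rows naming several genes stood for a listed gene where no other did. Named were all marker genes and ligands, up to 6 called list genes with at least 1 FPKM in a group and the 2 most abundant uncalled ones; some called list genes are not reported here. With 1 value per group, genes alike in pattern could not be sought. Alternatives were other q thresholds, recomputed adjustment, pseudocounts, centring, rescaling and other row choices.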

Additional observations from a re-analysis of the deposited data

How the results depend on the processing

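Tmem119 alone was called among the marker genes under each of 6 alternatives: q under 0.01 or 0.1, Benjamini-Hochberg adjustment recomputed over status OK rows or over rows with a mean of at least 1 FPKM, a minimum of 1.5-fold, and all rows of a symbol. Its log2 ratio stayed between 0.70 and 0.78 over pseudocounts of 0.1 and 1, centring on the median of all genes (a shift of 0.04), rescaling to equal FPKM sums (0.07) and summing rows. All 50 such values of the 10 genes lay within 1 implied standard error of the value reported. Each marker gene has 1 row, so using all rows or summing rows could only repeat the reported result. Centring and rescaling shift every gene by the same amount. Tyrobp alone changed sign, to -0.03 with centring and -0.07 with rescaling. The median of the marker genes lay between -0.01 (rescaled) and 0.12 (without P2ry12, the gene that shares its locus) over 8 alternatives. Some of the other lists' counts moved by over 1.5 times at other thresholds. At a q under 0.01 these were 2 of 39 other microglia-enriched genes, 0 of 12 border macrophage and 0 of 7 blood markers. Also moved there were 1 of 12 oligodendrocyte, 0 of 13 endothelial and mural and 1 of 10 medium spiny neuron markers. At a q under 0.1 those that moved were 5 of 21 inflammatory, 1 of 17 disease-associated and 2 of 7 blood genes. The other lists' counts lay within 1.5 times of those reported. The share called moved over all genes too. Of the 14567 genes it was 14.8% at a q under 0.05, 9.4% under 0.01 and 18.7% under 0.1. No paired analysis was possible because the table gives no values per pool, and for the same reason no pool could be left out. Depth is unknown.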
